A study of Mus musculus with 6 samples.

Results

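The expression of 8 genes of the actin filament pointed end and its tropomyosin coat was described in MC3T3-E1, a cell line of osteoblast precursors that was derived from mouse skull bone. The genes were the tropomodulins Tmod1, Tmod2 and Tmod3, the leiomodin Lmod1 and the tropomyosins Tpm1, Tpm2, Tpm3 and Tpm4, which are 8 of the 26187 genes in the deposited tables. Cells of the PAKG group received PAKG–8diol–PEG(S) MPs, small polyester microparticles that contain α-ketoglutarate, at 30 μg/mL for 2 days, and cells of the OC group received no MPs. Both groups were kept in the same osteoconductive (OC) medium, which contains ascorbic acid and β-glycerophosphate at concentrations that differ between the paper and the sample labels. There were 3 poly(A) RNA libraries in each group, and no library came from cells given particles of another polymer, so an effect of particles as such and one of the α-ketoglutarate polymer cannot be told apart. The study's methods give its cell experiments as run in triplicate, but the sources do not say for the RNA libraries whether the 3 of a group came from separate wells or cultures, so the errors given here may be technical.

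Actin filaments grow and shrink at a barbed and a pointed end. Tropomyosins lie along the filament as coiled coils and influence which myosins and severing proteins act on it, and tropomodulins bind the last tropomyosin and actin subunits at the pointed end and cap it. Leiomodins share the actin-binding parts of tropomodulins and nucleate or lengthen filaments. Osteoblasts use such filaments in spreading, contraction and adhesion to matrix.

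The genes were chosen by name as a family with the difference between PAKG and OC already known, Tmod1 being among the genes with the highest fold changes. The values of that difference are therefore given for these 8 genes as a description, with standard errors and without printing a p-value. Which of them passed a p threshold is stated further below, also as a description only. The unit is the authors' FPKM, fragments per kilobase of transcript scaled to the mapped fragments of the library, summed over the transcripts of a gene, so isoforms of 1 gene were not separated. Fold changes are differences of mean log2(FPKM + 0.1), PAKG minus OC, from a limma fit over the 12590 genes that reached 0.5 FPKM on average over the 6 libraries. Tmod2 lay under that minimum, so 7 of the 8 genes entered the fit. Tmod1 reached the minimum only through the PAKG libraries. Depth was estimated from the steps between low FPKM values at 33200000 to 43300000 fragments per PAKG library and 32800000 to 38300000 fragments per OC library. The 10 osteoblast markers listed were all above the minimum, with a summed level of 8630 to 9250 FPKM in PAKG and 5910 to 6950 FPKM in OC. That sum was mostly Col1a1, Col1a2 and Sparc. Runx2, Sp7, Alpl, Ibsp, Bglap, Bglap2, Col1a1, Col1a2 and Sparc were each higher in every PAKG library than in any OC library. Their log2 fold changes ran from 0.43 (Col1a2) to 4.36 (Bglap). All but Col1a2 (limma adjusted p = 0.0531) passed a limma adjusted p under 0.05. The remaining marker, Spp1 (osteopontin), was lower at 173.22 to 208.43 FPKM in PAKG and 241.94 to 287.68 FPKM in OC. Its log2 fold change was -0.50 (limma adjusted p = 0.0186). The Spp1 call was lost with no filter (-0.50) and without PAKG replicate 3 (-0.51), OC replicate 1 (-0.46) or OC replicate 3 (-0.46).

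The promoter windows are shown first because those of 3 genes with higher values in PAKG (Tmod1, Lmod1 and Tpm1) hold the same 6 bases, while that of Tpm2, also higher, does not. RefSeq windows on GRCm38.p6, from 250 bases before to 50 bases after the start that RefSeq gives, were found for 7 of the 8 genes (9 windows, with a pair each for Tmod2 and Tpm3), and Tmod3 had no entry. The windows were searched on both strands for the MCAT core CATTCC, 6 bases which TEAD factors can bind, for the RUNX core TGTGGT and for the CArG box bound by SRF, motifs chosen after the values had been seen. The MCAT core, in capitals below as CATTCC or its reverse complement GGAATG, was in 3 of the 9 windows, those of Tmod1, Lmod1 and Tpm1, and in no window of Tmod2, Tpm2, Tpm3 or Tpm4. In the Tmod1 stretch the capitals also take in the RUNX core read from the other strand (ACCACA), which lies directly before the MCAT core.
Tmod1, chr4:46039047-46039076, plus strand: cagggaACCACACATTCCcctgcctccggg
Lmod1, chr1:135324671-135324700, plus strand: ccaagattccctGGAATGtcctcaagtttc
Tpm1, chr9:67049252-67049281, minus strand: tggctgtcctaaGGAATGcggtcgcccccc
Of all 32851 windows of this length, 14.7% held the MCAT core and 16.8% the RUNX core. The CArG box, in 1.63% of all windows, was in none of the 9. GENCODE M21 places the start of Tmod1 and that of some Tpm1 transcripts further upstream. The printed Tmod1 and Tpm1 stretches thus lie within the genes of that annotation, and their windows overlap an annotated UTR. Whether the stretches themselves lie in an exon was not examined. The Lmod1 stretch lies before the gene. A match is a description of the letters in the window and not of a factor's binding.

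Among the capping proteins, Tmod1 was higher in every PAKG library. Tmod1 (ENSMUSG00000028328, chromosome 4, 46038935 to 46116032, plus strand) encodes the tropomodulin of red cells, striated muscle and lens fibres. It was listed at 5.43, 5.12 and 5.08 FPKM in PAKG and at 0.46, 0.31 and 0.37 FPKM in OC. The lowest PAKG value was far above the highest OC value. The means were 5.21 ± 0.192 FPKM in PAKG and 0.380 ± 0.0755 FPKM in OC (SD, n = 3 each), a 13.7-fold ratio, and the log2 fold change was 3.48 (standard error 0.14), at rank 4 of the 12590 genes from the highest. On the longest annotated transcript of 3158 bases, these levels correspond to an estimated 533 to 743 fragments per PAKG library and 37 to 48 per OC library. The OC level was low and rested on 37 or more estimated fragments in each library. Because OC lies near the pseudocount, the log2 fold change depended on it, at 2.17 with a pseudocount of 1 and 3.76 with a pseudocount of 0.01.

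The other capping proteins were close in both groups. Tmod3 (ENSMUSG00000058587, chromosome 9, 75497707 to 75559657, minus strand), the tropomodulin found in most cell types, was listed at 7.94, 7.96 and 7.58 FPKM in PAKG and at 7.58, 8.91 and 8.32 FPKM in OC. The groups overlapped, and the log2 fold change was -0.08 (standard error 0.08). Tmod2 (ENSMUSG00000032186, chromosome 9, 75565621 to 75611325, minus strand), the neural tropomodulin, lies 5963 bases from Tmod3 on the same strand. It was listed at 0.20, 0.21 and 0.12 FPKM in PAKG and at 0.16, 0.25 and 0.23 FPKM in OC, again with overlap. The muscle paralog Tmod4 averaged 0.0833 FPKM in PAKG and 0.0700 FPKM in OC.

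Lmod1 (ENSMUSG00000048096, chromosome 1, 135324807 to 135368065, plus strand), the leiomodin of smooth muscle, was modestly higher with PAKG MPs. Its values were 13.87, 12.24 and 12.01 FPKM in PAKG and 10.05, 10.36 and 9.46 FPKM in OC, with no overlap. The means were 12.7 ± 1.01 FPKM in PAKG and 9.96 ± 0.457 FPKM in OC (SD, n = 3 each), a log2 fold change of 0.35 (standard error 0.08).

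The tropomyosins moved in opposite directions, with Tpm1 and Tpm2 higher and Tpm3 and Tpm4 lower in PAKG. Tpm1 (ENSMUSG00000032366, chromosome 9, 67022590 to 67049406, minus strand) gives rise to the long muscle α-tropomyosin and to long and short isoforms of other cells. It was listed at 628.36, 528.63 and 575.53 FPKM in PAKG and at 356.55, 350.25 and 356.15 FPKM in OC. The OC libraries were nearly alike and the PAKG libraries were spread out above them. The means were 578 ± 49.9 FPKM in PAKG and 354 ± 3.53 FPKM in OC (SD, n = 3 each), a ratio of 1.63 and a log2 fold change of 0.70 (standard error 0.09).

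Tpm2 (ENSMUSG00000028464, chromosome 4, 43514711 to 43523765, minus strand), which encodes β-tropomyosin, was higher by less than Tpm1 and with more spread. Its values were 74.29, 51.99 and 62.71 FPKM in PAKG and 49.47, 42.87 and 49.02 FPKM in OC. The groups did not overlap, but PAKG replicate 2 lay only just above the highest OC library. The log2 fold change was 0.41 (standard error 0.13), and without PAKG replicate 2 it was 0.54.

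Tpm4 (ENSMUSG00000031799, chromosome 8, 72134975 to 72153142, plus strand), known mainly for a short cytoskeletal isoform, was lower with PAKG MPs. It was listed at 210.06, 195.22 and 211.10 FPKM in PAKG and at 261.39, 241.62 and 258.57 FPKM in OC. All 3 PAKG libraries lay below the OC libraries, and the log2 fold change was -0.31 (standard error 0.07). Tpm3 (ENSMUSG00000027940, chromosome 3, 90072649 to 90100902, plus strand), the source of slow muscle and short cytoskeletal isoforms, was listed at 58.65, 51.71 and 53.11 FPKM in PAKG and at 62.64, 65.34 and 60.96 FPKM in OC. These groups also did not overlap, and the log2 fold change was -0.21 (standard error 0.07). The value of Tpm3 is uncertain to the extent that reads were shared with Tpm3-rs7, a related sequence on chromosome 14 that averaged 9.84 FPKM in PAKG and 10.9 FPKM in OC.

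**Figure D1:**
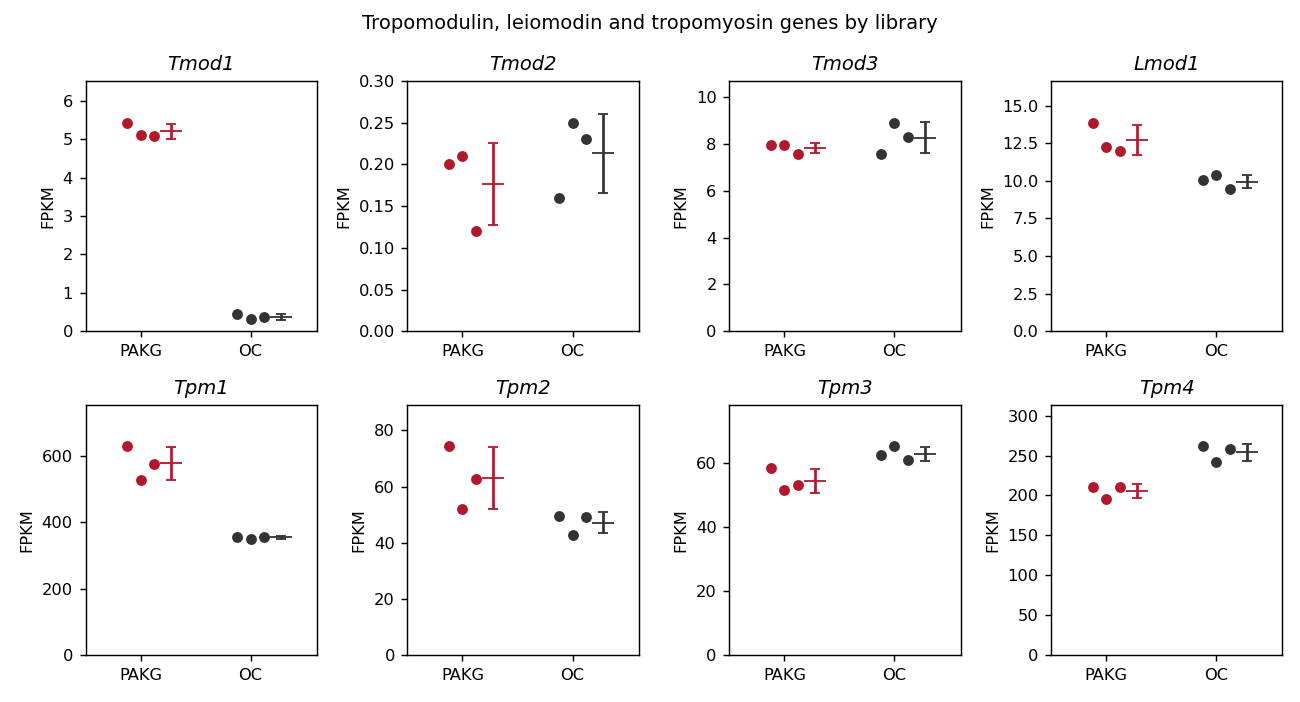
FPKM (linear axis from 0, its own scale in each panel) of the 8 genes in the 3 PAKG (red, left) and 3 OC (black, right) libraries; points are libraries in the order of replicates 1 to 3, and the bar beside them is the mean with its SD. Tmod1 stands at 5.08 to 5.43 FPKM in PAKG and 0.31 to 0.46 FPKM in OC, while the groups overlap for Tmod2 and Tmod3.

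At a limma adjusted p under 0.05 (Benjamini-Hochberg over all genes), the 7 genes in the fit included 3 that were higher in PAKG (Tmod1, Tpm1 and Lmod1) and 1 that was lower (Tpm4), where 5.97% of all genes were higher and 8.73% lower (6.94% and 6.07% after rescaling to a common total). With a fold change of at least 2 added, which are the study's thresholds, Tmod1 alone was higher and 0 were lower, where 0.866% of all genes were higher and 0.58% lower. At an unadjusted limma p under 0.05, 4 were higher and 2 lower, where 12% of all genes were higher and 16.8% lower. All PAKG libraries were above all OC libraries in 4 of the 7 genes and below them in 2, where all genes gave 13.7% and 19.6%. These counts describe genes chosen with the contrast known, and nothing is read from them. With the replicate number as a block, Tpm2 and Tpm3 also passed the adjusted p, giving 4 higher and 2 lower, where 12.3% of all genes were higher and 17.1% lower. Lmod1 and Tpm4 no longer passed with no filter on low genes (log2 fold changes of 0.35 and -0.31), nor without PAKG replicate 1 (log2 fold changes of 0.28 and -0.32), PAKG replicate 3 (0.39 and -0.33), OC replicate 1 (0.35 and -0.28) or OC replicate 3 (0.31 and -0.29). Tpm2 passed without PAKG replicate 2 (0.54), without replicate 2 of both groups (0.47) and after rescaling to a common total (0.45).

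**Figure D2:**
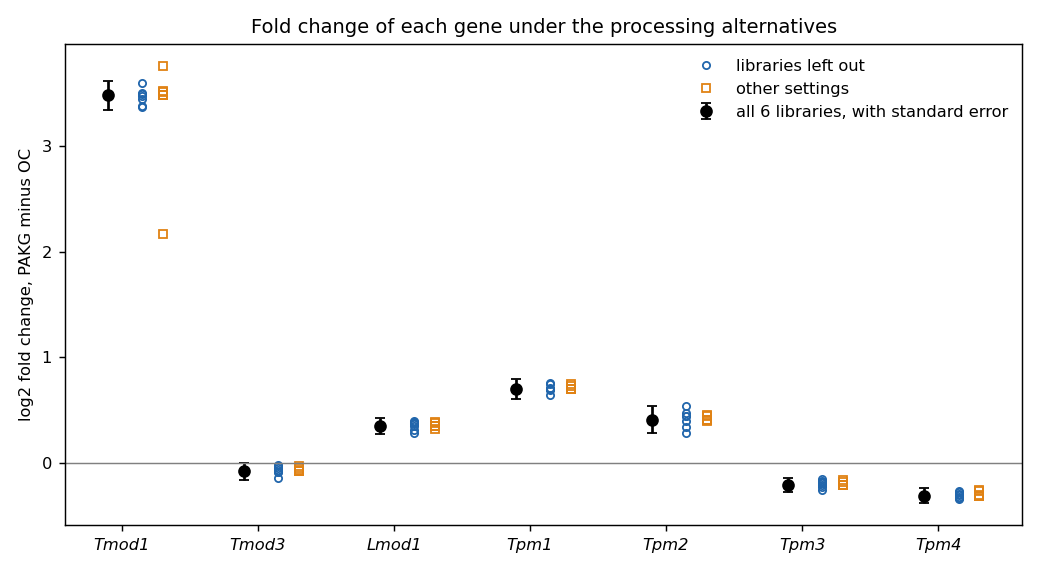
Log2 fold change, PAKG minus OC, of the 7 genes in the fit: black points are the fit to all 6 libraries with the standard error, blue circles leave out libraries, and orange squares are the other settings. The sign of each gene is the same under all settings shown; Tmod1 falls to 2.17 only with a pseudocount of 1.

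Samples with the same replicate number deviated together, so the differences within a number are also given. For Tmod1 the PAKG value was 11.8, 16.5 and 13.7 times the OC value in numbers 1, 2 and 3. For Tpm1 it was 1.76, 1.51 and 1.62 times the OC value. For Tpm2 the log2 difference was 0.59, 0.28 and 0.35. The ratio of Tpm4 was nearly the same in each number, at 0.804, 0.808 and 0.816, whereas that of Tpm3 was 0.936, 0.791 and 0.871. Tmod3 had no common direction, with ratios of 1.05, 0.893 and 0.911.

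FPKM are per length of transcript, so levels can be ordered between genes. In PAKG the order of mean FPKM was Tpm1, Tpm4, Tpm2, Tpm3, Lmod1, Tmod3, Tmod1 and Tmod2, and in OC it was the same but with Tpm3 before Tpm2. Neighbours in this order did not overlap between libraries, except Tpm2 (51.99 to 74.29 FPKM) and Tpm3 (51.71 to 58.65 FPKM) in PAKG. In OC the ranges of Tpm3 (60.96 to 65.34 FPKM) and Tpm2 (42.87 to 49.47 FPKM) were separate. Tmod1 in PAKG remained below Tmod3, and in OC Tmod1 and Tmod2 were both under 0.5 FPKM.

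The makeup of each family was compared as shares of its summed FPKM within a library, which do not depend on how libraries are scaled. Tpm1 took 64.7%, 63.9% and 63.8% of the tropomyosin FPKM in PAKG and 48.8%, 50.0% and 49.1% in OC. Tpm4 took 21.6%, 23.6% and 23.4% in PAKG and 35.8%, 34.5% and 35.7% in OC. The level of Tpm1 was thus 2.71 to 2.99 times that of Tpm4 in PAKG and 1.36 to 1.45 times in OC, with no overlap. Tpm3 had 5.89 to 6.25% in PAKG and 8.41 to 9.33% in OC. The share of Tpm2 overlapped, at 6.28 to 7.65% in PAKG and 6.12 to 6.78% in OC. Among the tropomodulins, Tmod1 took 40.0%, 38.5% and 39.7% in PAKG and 5.61%, 3.27% and 4.15% in OC. Tmod3 had the remainder but for Tmod2, at 58.5 to 59.9% in PAKG and 92.4 to 94.1% in OC.

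**Figure D3:**
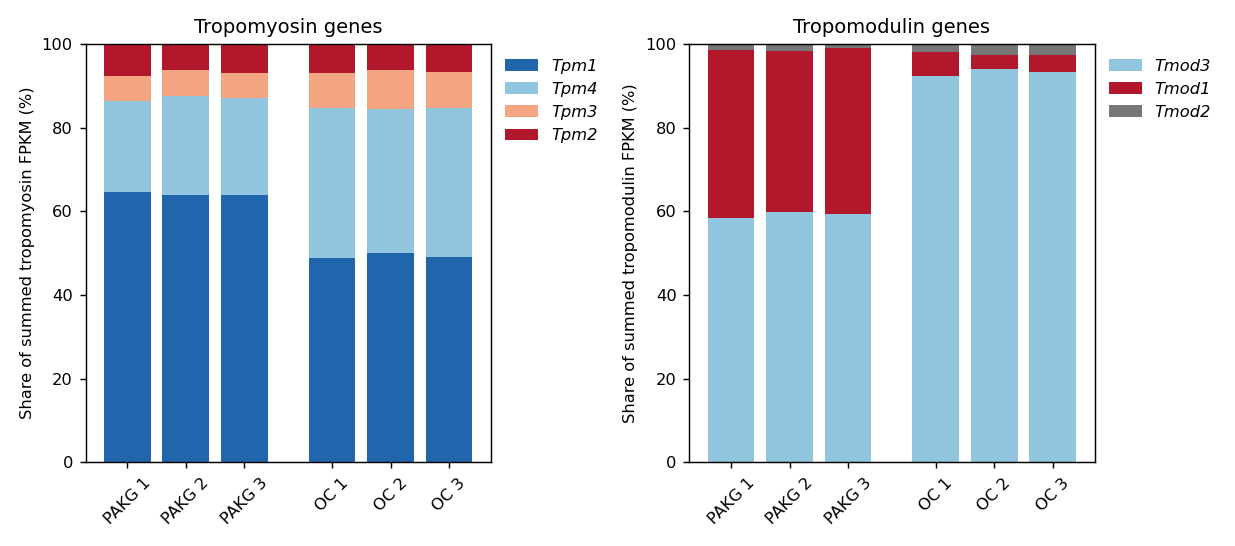
Share (%) of each gene in the summed FPKM of Tpm1 to Tpm4 (left) and of Tmod1 to Tmod3 (right), with 1 stacked bar per library, PAKG on the left of each panel. Tpm1 takes 63.8 to 64.7% of tropomyosin FPKM in PAKG and 48.8 to 50.0% in OC, and Tmod1 takes 38.5 to 40.0% of tropomodulin FPKM in PAKG and 3.27 to 5.61% in OC.

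The sums of both families were also higher in PAKG. Tropomyosin FPKM summed to 971, 828 and 902 in PAKG and to 730, 700 and 725 in OC. Tropomodulin FPKM summed to 13.6, 13.3 and 12.8 in PAKG and to 8.20, 9.47 and 8.92 in OC, with Tmod3 about level and Tmod1 higher. For each 100 FPKM of the cytoplasmic actins Actb and Actg1 together, there were 30.6 to 33.5 FPKM of tropomyosin in PAKG and 26.7 to 27.3 in OC. That denominator leaves out the actins Acta2 and Actg2, which were also higher in PAKG. Acta2 averaged 1470 FPKM in PAKG and 1020 FPKM in OC, and Actg2 290 FPKM in PAKG and 185 FPKM in OC. A ratio of tropomyosin to all actins was not computed. For each 100 FPKM of tropomyosin there were 1.40 to 1.61 FPKM of tropomodulin in PAKG and 1.12 to 1.35 in OC. Of the cytoplasmic actins themselves, Actb differed by 0.03 on the log2 scale (limma adjusted p = 0.842) and Actg1 by 0.12 (adjusted p = 0.429).

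Because tropomodulins and tropomyosins are also muscle genes, markers of other cell types were examined beside them. Striated muscle markers were low: the 8 of 12 that were measured summed to 1.21 to 1.26 FPKM in PAKG and 1.13 to 1.29 FPKM in OC, with Ttn at 0 in all 6 libraries and Myog at 0 in the PAKG libraries. That sum was mostly Des and Mylpf, which differed in opposite directions without overlap. Des was at 0.79 to 0.89 FPKM in PAKG and 0.62 to 0.70 FPKM in OC. Mylpf, under the filter, was at 0.32 to 0.42 FPKM in PAKG and 0.47 to 0.63 FPKM in OC. Erythroid markers, of which 5 of 10 were measured, summed to at most 0.37 FPKM in PAKG and 0.23 FPKM in OC. The 8 smooth muscle markers had a sum of 1820 to 1930 FPKM in PAKG and 1170 to 1380 FPKM in OC. That sum came mainly from the actins Acta2 and Actg2, and the defining markers Myh11, Cnn1 and Myocd were at 0.07 FPKM or less in every library. By limma, the log2 fold change of Acta2 was 0.53 (adjusted p = 0.0137, lost with no filter and without PAKG replicate 1 or 3, at 0.53, 0.52 and 0.53) and that of Actg2 0.65 (adjusted p = 0.00159), beside 0.35 for Lmod1. Smtn also passed (0.42, adjusted p = 0.00569), and Tagln and Des did not (adjusted p = 0.165 and 0.238). Of the neuron markers 7 of 8 were measured, with a sum of 10.2 to 10.6 FPKM in PAKG and 6.45 to 7.55 FPKM in OC that was mostly Tubb3, and Rbfox3 was at 0.02 FPKM or less. Tubb3, the only neuron marker in the fit, had a log2 fold change of 0.62 (limma adjusted p = 0.00346). Of the macrophage markers 5 of 8 were measured, with a sum of 16.8 to 18.4 FPKM in PAKG and 9.37 to 12.1 FPKM in OC that was mostly Lyz2, and Ptprc was at 0.01 FPKM or less. The log2 fold change of Lyz2 was 0.64 (limma adjusted p = 0.012). Csf1r, at 0.22 to 0.29 FPKM in PAKG and 0.06 to 0.12 FPKM in OC, and Fcer1g, at 0.55 to 1.35 FPKM in PAKG and 0 to 0.16 FPKM in OC, were low and without overlap, and neither reached the filter. Cd68, which was in the fit, overlapped at 0.34 to 0.69 FPKM in PAKG and 0.52 to 0.63 FPKM in OC. Its log2 fold change was -0.10 (limma adjusted p = 0.841). The part of the smooth muscle, neuron and macrophage markers in the differences of the tropomodulin and tropomyosin genes was not tested. In bulk samples, a larger share of cells with these transcripts and more RNA per cell cannot be told apart.

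Genes near Tmod1 had differences of at most 0.17 in size on the log2 scale. Tdrd7, which ends 4173 bases before Tmod1 on the same strand, differed by 0.17 (standard error 0.06, limma adjusted p = 0.113). It was listed at 17.93 to 18.83 FPKM in PAKG and 15.89 to 16.56 FPKM in OC, with no overlap. Ncbp1, the next expressed gene beyond Tmod1 that does not overlap it, differed by -0.04 (adjusted p = 0.704). Tstd2, on the opposite strand, overlaps the 3′ end of Tmod1 and was listed at 9.19 to 10.78 FPKM in PAKG and 8.64 to 10.59 FPKM in OC (log2 fold change 0.06, adjusted p = 0.759). The libraries were stranded, but the strand setting of the counting is not given in the sources used here, so reads of Tstd2 within the Tmod1 level were not separated. Tpm4 is overlapped on the opposite strand by Gm26586, at 0.13 to 0.21 FPKM in PAKG and 0.24 to 0.37 FPKM in OC, and by Gm16091, at 1.15 to 1.47 FPKM in PAKG and 1.53 to 2.27 FPKM in OC, both far below Tpm4. Gm48822, within Tmod2, was at 0.02 FPKM or less in every library. Of the next expressed genes beside the other members, 4 passed the limma adjusted p, where 5.97% of all genes were higher and 8.73% lower. Lysmd2, Leo1, Timm17a, Lactb, Tln1, 4933434E20Rik, Gm43712 and Rab8a did not pass. These neighbours were named after their values were seen, and nothing is read from the count. Gm19299, 84153 bases from Tpm1, had a difference of 0.95 (adjusted p = 0.00154). Shisa4, 2991 bases from Lmod1, had one of 0.53 (adjusted p = 0.0169), lost without PAKG replicate 1 (0.46), PAKG replicate 3 (0.51) or OC replicate 3 (0.56). Arhgef39, 15015 bases from Tpm2, had one of -0.51 (adjusted p = 0.0173), lost without OC replicate 1 (-0.52) or OC replicate 3 (-0.47). Zfp961, 141182 bases from Tpm4, had one of -0.47 (adjusted p = 0.0156), lost after rescaling to a common total (-0.43) and without PAKG replicate 1 (-0.45), PAKG replicate 3 (-0.45) or OC replicate 3 (-0.47).

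The 5 genes nearest to Tmod1, by the root mean square difference of log2(FPKM + 0.1) over the 6 libraries after setting the OC mean of each gene to 0, were Bglap2, Phospho1, Panx3, Bglap and Matn4. The differences were 0.401, 0.593, 0.626, 0.648 and 0.799 on the log2 scale. Bglap and Bglap2 encode osteocalcin and are near-identical copies, so the division of reads between them is uncertain; Phospho1 encodes a phosphatase of matrix mineralization, Panx3 a pannexin channel and Matn4 a matrilin. All 5 were more abundant than Tmod1 in both groups. Their mean levels were 19.3 to 53.5 FPKM in PAKG and 0.853 to 8.75 FPKM in OC. The measure finds genes with a like rise by construction.

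The other actin filament genes were read from 6 lists of 158 genes, of which 147 were in the tables and 116 in the fit. At a limma adjusted p under 0.05, 12 of the 116 rose and 11 fell with PAKG MPs, which is 10.3% and 9.48% beside 5.97% and 8.73% of all genes. The median log2 fold change of the 116 genes was -0.0038, and that of all genes was -0.0318. At both thresholds 3 rose (Fhod3, Actn3 and Acta1) and 3 fell (Eps8, Cap2 and Spire2). Of these, Acta1 and Actn3 averaged 0.343 and 0.417 FPKM in OC, and Spire2 averaged 0.453 FPKM in PAKG. These 3 genes thus passed the 0.5 FPKM filter only through the group where they were higher. With a filter at 1 FPKM, 1 list gene was higher and 2 were lower at both thresholds. With the replicate number as a block, 24 rose and 19 fell, and rescaling to a common total gave 12 and 6. The counts higher and lower were 5 and 5 without PAKG replicate 1, 4 and 4 without PAKG replicate 3, 7 and 6 without OC replicate 1, and 5 and 4 without OC replicate 3, and the count lower was 7 without OC replicate 2.

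Of 30 genes of filament ends and turnover, none rose and 6 fell (2 and 8 at an unadjusted limma p under 0.05, where all genes gave 12% and 16.8%), with a median of 0.0046. Eps8, which caps barbed ends and bundles filaments, was listed at 2.39, 2.42 and 2.27 FPKM in PAKG and 5.49, 6.18 and 5.49 FPKM in OC (log2 fold change -1.24, standard error 0.09, adjusted p = 0.000322). Cap2, a cyclase-associated protein that recycles actin monomers, was listed at 2.78, 2.90 and 2.62 FPKM in PAKG and 6.44, 6.02 and 5.93 FPKM in OC (log2 fold change -1.12, standard error 0.08, adjusted p = 0.000364). Both fell, and neither group overlapped the other. The capping protein subunit Capza1, part of the dimer that closes the barbed end, fell by 0.34 on the log2 scale (limma adjusted p = 0.0165). Its call was lost without PAKG replicate 1 (-0.30), PAKG replicate 3 (-0.34) or OC replicate 3 (-0.31). Of the other capping protein subunits listed, Capza2 differed by -0.23 (limma adjusted p = 0.0485) and Capzb by 0.08 (limma adjusted p = 0.616).

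Of 31 nucleators and elongators, 3 rose and 4 fell, with a median of -0.073. Fhod3, a formin of sarcomeric and stress fibre actin, was listed at 3.49, 4.22 and 3.44 FPKM in PAKG and at 1.11, 1.37 and 1.16 FPKM in OC, and rose by 1.54 on the log2 scale (standard error 0.13, limma adjusted p = 0.000543). Spire2, a nucleator of unbranched filaments, was lower at 0.51, 0.39 and 0.46 FPKM in PAKG and 1.15, 0.73 and 1.28 FPKM in OC (log2 fold change -1.03, adjusted p = 0.0272). Its call was lost with no filter (-1.03) and without PAKG replicate 1 (-1.11), PAKG replicate 3 (-1.04), OC replicate 1 (-0.96) or OC replicate 3 (-0.89). In these fits the limma adjusted p was 0.0569 to 0.114. The others of this list past the adjusted p in the main fit had log2 fold changes under the fold threshold. Enah (0.75) and Fhod1 (0.31) were higher, and Diaph3 (-0.89), Actr2 (-0.35) and Wipf1 (-0.34) were lower.

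Of 22 genes of myosin II and its regulators, 2 rose and 1 fell, with a median of -0.0215 and none past the fold threshold. Myl9, a regulatory light chain, rose by 0.58 on the log2 scale, to 391 ± 27.3 FPKM in PAKG against 262 ± 32.8 FPKM in OC (SD, n = 3 each, limma adjusted p = 0.0128), and lost its call without PAKG replicate 3 (0.58, adjusted p = 0.059). Mylk, the kinase of that light chain, was at 21.1 ± 5.08 FPKM in PAKG against 10.7 ± 2.08 FPKM in OC (log2 fold change 0.96, adjusted p = 0.0148 from limma). Its call was lost without OC replicate 1 (0.87) or OC replicate 3 (0.91). Rnd3, a small GTPase that counters contraction, fell by 0.30 on the log2 scale (adjusted p = 0.0325). Its call was lost without PAKG replicate 3 (-0.28), OC replicate 1 (-0.33), OC replicate 2 (-0.27) or OC replicate 3 (-0.29), without replicate 2 of both groups (-0.24), with no filter (-0.30), with no mean-variance trend (-0.30) and after rescaling to a common total (-0.25).

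Spectrin and its partners hold short tropomodulin-capped filaments at the membrane of red cells. Of 11 such genes in the fit, 1 rose and 0 fell (1 and 2 at an unadjusted limma p under 0.05), with a median of -0.0963. The one was Epb41l2, a protein of the 4.1 family, with a log2 fold change of 0.40 (adjusted p = 0.0267 in limma), a call lost with no filter (0.40) and without PAKG replicate 1 (0.43), PAKG replicate 3 (0.42), OC replicate 1 (0.36) or OC replicate 3 (0.35).

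Of 19 bundlers and crosslinkers, 4 rose and 0 fell (5 and 0 at an unadjusted limma p under 0.05, where all genes gave 12% and 16.8%), with a median of 0.125. Among them Actn3, the α-actinin of fast muscle, was listed at 0.88, 1.08 and 1.07 FPKM in PAKG and at 0.38, 0.27 and 0.60 FPKM in OC (log2 fold change 1.15, adjusted p = 0.0269 in limma). Its call was lost with no filter (1.15), without replicate 2 of both groups (0.89) and without PAKG replicate 1 (1.24), 2 (1.10) or 3 (1.11), OC replicate 1 (1.12) or OC replicate 2 (0.93). The others that rose in the main fit were Pdlim2 (log2 fold change 0.63), Actn1 (0.36) and Pdlim7 (0.31). Of the 18 genes of the striated muscle thin filament, only 3 were in the fit, and 2 of them rose and 0 fell (2 and 1 at an unadjusted p under 0.05). Acta1, skeletal muscle actin, was listed at 1.09, 1.10 and 1.12 FPKM in PAKG and at 0.42, 0.31 and 0.30 FPKM in OC (log2 fold change 1.45, standard error 0.19, adjusted p = 0.00282). Tnnc2, the troponin C of fast muscle, rose by 0.80 on the log2 scale (limma adjusted p = 0.0146, lost without PAKG replicate 1 or 3 or OC replicate 3, at 0.73, 0.76 and 0.72). Tnnc1 had 3.11 to 4.06 FPKM in PAKG and 4.05 to 5.14 FPKM in OC (log2 fold change -0.35, adjusted p = 0.131), and the other troponins had at most 0.27 FPKM in PAKG and 0.08 FPKM in OC.

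**Figure D4:**
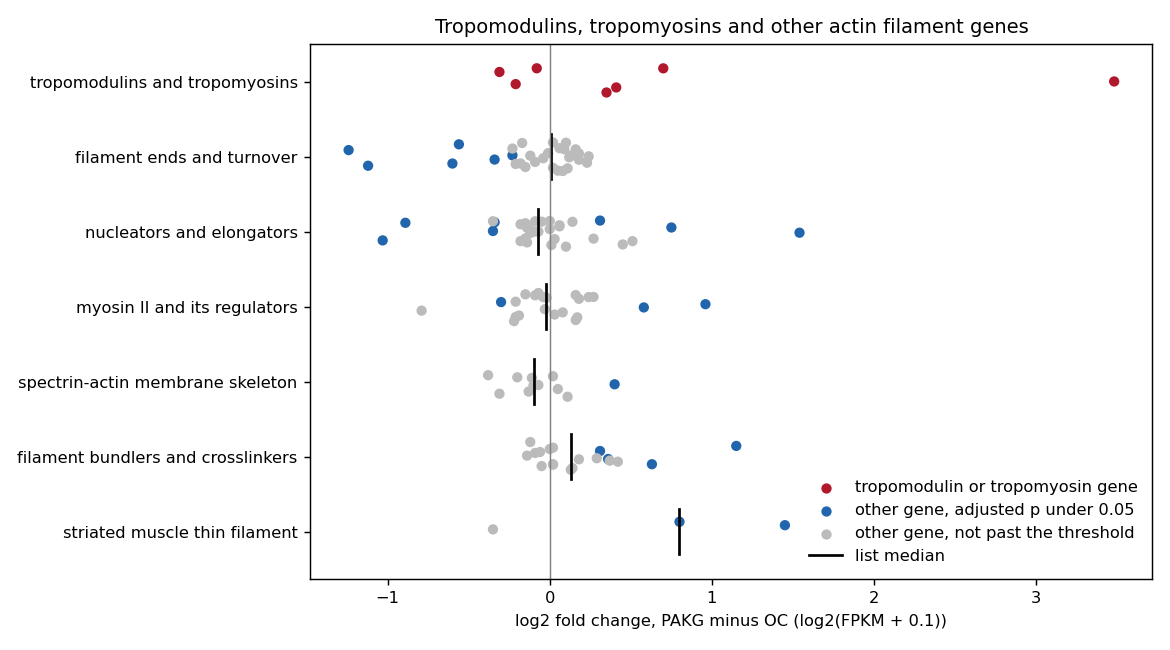
Log2 fold change, PAKG minus OC, of the 7 tropomodulin, leiomodin and tropomyosin genes (red) and of the 116 other actin filament genes in 6 lists; blue points passed a limma adjusted p under 0.05, grey points did not, and black bars are list medians. Tmod1 at 3.48 is to the right of all other points, and its high fold change was known when the family was chosen. The list medians lie between -0.0963 and 0.125, except 0.796 for the 3 genes of the striated muscle thin filament.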

How the data were processed

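Poly(A) RNA of 6 libraries (3 PAKG, 3 OC) was analysed; GEO's labels gave each library its group and replicate number. The values deposited by the authors are gene-level FPKM rounded to 2 decimals, in a table for each library. Tools in the submitters' processing notes are HISAT2, StringTie, cutadapt, FastQC and DESeq2, and the build is GRCm38; their versions are not stated there. A count model was not fitted to FPKM. Of the gene IDs, 99.76% were in GENCODE M21, the source of coordinates. Values were transformed to log2(FPKM + 0.1), filtered at a mean of 0.5 FPKM and fitted with limma 3.58.1 in R 4.3.3 (lmFit, eBayes with trend, 2-sided, Benjamini-Hochberg). The fit, without the filter step, was also run on simulated data. Those data had independent libraries and changes only in the better expressed genes. They thus do not cover samples that deviate together or genes near the floor in a group. Where a symbol had more than 1 ID, that with the highest mean was used. Depth is the number of fragments at which FPKM below 0.6 of 1-transcript genes of 200 to 1000 bases came closest to whole fragments; whole reads were not recovered.

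The members, lists and markers were chosen with earlier results of these data known. Named genes were the members, up to 4 genes per list with the smallest adjusted p at both thresholds (or up to 3 at the adjusted p alone), the 5 nearest to Tmod1, its neighbours, genes overlapping members, and markers on which a list's check turns. Capza1, Capza2, Capzb, Spp1 and the other osteoblast markers were named after their values were seen. So were the neighbours of other members, Tnnc1, Tnnc2, Actb, Actg1, Tmod4 and Tpm3-rs7. The same holds for Enah, Fhod1, Diaph3, Actr2, Wipf1, Pdlim2, Actn1, Pdlim7, Cd68 and Mylpf. Deviations of same-numbered samples correlated at 0.240, 0.430 and 0.192 (above 0.1 in all 3 pairs), so the number was fitted as a block in an alternative fit. The main fit had no block. The standard errors and adjusted p given are from the main fit unless another setting is named. What the number marks is not stated. Alternatives were pseudocounts of 1 and 0.01, no filter or 1 FPKM, scaling by median ratios or to a common total (TPM), no trend, the block, each library left out and, chosen after seeing the data, replicate 2 of both groups left out. Figures were drawn in Python 3.11.15 with matplotlib 3.10.9.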

Additional observations from a re-analysis of the deposited data

How the results depend on the processing

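The log2 fold changes of the 7 tropomodulin, leiomodin and tropomyosin genes kept their sign under every alternative run. Leaving out 1 library or replicate 2 of both groups gave 3.37 to 3.60 for Tmod1, 0.64 to 0.76 for Tpm1, 0.28 to 0.54 for Tpm2, 0.28 to 0.40 for Lmod1, -0.26 to -0.15 for Tpm3, -0.34 to -0.27 for Tpm4 and -0.14 to -0.02 for Tmod3. With 1 library left out, members at the adjusted p numbered 2 to 4 higher and 0 to 1 lower. At both thresholds 1 was higher and 0 lower throughout. Actin list genes numbered 4 to 11 higher and 4 to 12 lower at the adjusted p (16 and 13 without replicate 2 of both groups), and 2 to 3 of each at both thresholds. Over all genes, 100 to 128 were higher and 63 to 98 lower at both thresholds. With no filter, 0 members were lower and the actin lists had 6 genes higher and 7 lower. With the replicate block, 2 members were lower, and the actin lists had 24 higher and 19 lower. Rescaling to a common total left 6 actin genes lower and gave 6.94% of all genes higher and 6.07% lower at the adjusted p, where the deposited scale gave 5.97% and 8.73%. With a pseudocount of 1, 62 genes were higher and 28 lower at both thresholds, of which 1 and 0 were actin list genes; with a filter at 1 FPKM, 1 actin list gene was higher. The filter removes low genes by construction, and the cause of the other shifts was not tested. The block also gave 12.3% of all genes higher and 17.1% lower at the adjusted p, and changed no other count given here by more than 1.5 times. At 2 decimals, levels near 0.1 FPKM such as those of Tmod2 carry 1 or 2 digits, and a difference in Tmod2, which was under the filter, was not tested.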
